A study of Rattus norvegicus with 12 samples.

Results

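The genes described here encode drug efflux pumps of the ATP-binding cassette (ABC) family and of the multidrug and toxin extrusion (MATE) family, read in whole rat kidney by RNA sequencing in 2 models of renal fibrosis. They were chosen by name: Abcb1a, Abcb1b, Abcc1, Abcc2, Abcc3, Abcc4, Abcg2 and Slc47a1, 8 genes in all. Of these, 6 had exactly 1 row among the 22132 entries of the table for the adenine model and exactly 1 among the 32623 entries of the table for the unilateral ureteral obstruction (UUO) model. Abcb1a and Abcb1b, which encode the rodent forms of P-glycoprotein, were matched to no row by name in either table and were not analysed here.

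All 12 libraries came from renal tissue of male wild-type SD rats that were 8 weeks old at purchase, with 3 rats per group. In the adenine model, the adenine group received 220 mg/kg adenine per day by the intragastric route for 3 weeks and the control group received saline over the same time. In the UUO model, the left ureter was ligated in the UUO group and was exposed without ligation in the sham group, and renal tissue was taken 2 weeks after surgery. The rats carried no transgene. The sources used here do not say from which kidney of a sham or UUO rat the RNA came, nor which part of the kidney was taken.

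Efflux pumps carry out the last step of drug and toxin secretion in the proximal tubule. Uptake carriers of the basolateral membrane, such as Slc22a2 for organic cations and Slc22a6 and Slc22a8 for organic anions, bring compounds from blood into the cell, and pumps of the apical membrane pass them into the tubular fluid. Abcg2, Abcc2, Abcc4 and Slc47a1 act at the apical membrane. Abcc1 and Abcc3 act at the basolateral membrane of epithelial cells, not necessarily those of the proximal tubule, and return their substrates towards the blood. Which cells of the kidney held the RNA of each member was not measured. ABC pumps use the energy of ATP, and Slc47a1 exchanges organic cations for protons.

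The sequence before the start of transcription is shown for the member that fell most in the adenine model (Abcg2), for a pair of members that rose in both models (Abcc1 and Abcc4) and for the member that changed in neither with the values as deposited (Abcc2). Each line gives 250 bases upstream of the annotated start, 5′ to 3′ along the gene, from RefSeq on GRCr8. Capitals mark matches, on either strand, to any of 6 short motifs that were searched: the nuclear receptor motif AGGTCA, the xenobiotic response element core GCGTG, the antioxidant response element core TGANNNNGC, the CCAAT box by its name, the GC box GGGCGG and the TATA box TATAAA.
Abcg2, chr4:89075224-89075473, plus strand: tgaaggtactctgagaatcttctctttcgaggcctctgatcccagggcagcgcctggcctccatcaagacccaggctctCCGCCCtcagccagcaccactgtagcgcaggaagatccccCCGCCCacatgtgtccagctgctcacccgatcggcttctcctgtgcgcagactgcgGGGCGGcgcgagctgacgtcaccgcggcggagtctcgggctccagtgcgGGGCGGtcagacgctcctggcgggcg
Abcc1, chr10:1162368-1162617, minus strand: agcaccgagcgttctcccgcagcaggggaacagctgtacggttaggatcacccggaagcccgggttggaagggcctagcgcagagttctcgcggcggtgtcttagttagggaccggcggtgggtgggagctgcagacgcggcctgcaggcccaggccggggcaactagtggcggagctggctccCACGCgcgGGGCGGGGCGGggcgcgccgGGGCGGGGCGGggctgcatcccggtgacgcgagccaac
Abcc4, chr15:102181365-102181614, minus strand: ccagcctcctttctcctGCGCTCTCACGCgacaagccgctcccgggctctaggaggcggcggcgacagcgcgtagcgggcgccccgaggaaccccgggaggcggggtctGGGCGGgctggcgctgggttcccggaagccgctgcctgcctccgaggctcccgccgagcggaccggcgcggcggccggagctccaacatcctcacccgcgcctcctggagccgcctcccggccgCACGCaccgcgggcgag
Abcc2, chr1:252613625-252613874, plus strand: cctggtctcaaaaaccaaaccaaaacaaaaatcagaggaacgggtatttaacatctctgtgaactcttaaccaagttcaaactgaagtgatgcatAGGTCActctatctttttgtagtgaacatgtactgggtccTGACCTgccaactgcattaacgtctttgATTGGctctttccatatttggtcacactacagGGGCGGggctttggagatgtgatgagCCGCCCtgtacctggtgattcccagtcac
GC boxes were found in each of these windows, at 4 places in Abcg2, 4 in Abcc1, 1 in Abcc4 and 2 in Abcc2, and 32.4% of 27457 rat promoter windows of this length held at least 1. In Abcc1, 2 pairs of GC boxes overlapped by 1 base. Abcc2 also held the nuclear receptor letters at 2 places (13.7% of all windows) and 1 CCAAT box (34.3%). The GCGTG core was present at 1 place in Abcc1 and 2 in Abcc4 (27.2% of all windows), and the TGANNNNGC core at 1 place in Abcc4, where it overlapped a GCGTG match (34.6%). TATAAA was found in none of these 4 windows and in 13.1% of all windows. The 4 windows differed in GC content, with 45.2% in Abcc2 against 67.2% in Abcg2, 72.8% in Abcc1 and 77.6% in Abcc4, beside a median of 52.0% over all windows. These matches are runs of letters and were not tested as binding sites. Abcc3 and Slc47a1 are named without a sequence.

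Expression is given as FPKM, the number of sequenced fragments per kilobase of transcript relative to all mapped fragments of the library. Fold changes were estimated by limma on log2(FPKM + 0.1) within each table, with Benjamini-Hochberg adjustment of p-values across every entry tested. A gene counted as changed at an adjusted p under 0.05, and as a differentially expressed gene (DEG) if the log2 fold change was also at least 2 in size. The summed FPKM of a library was between 468389 and 582725 in the adenine table and between 528811 and 630244 in the UUO table, lower in all treated libraries than in all of their controls. The 10 most abundant entries held 28.1% to 31.8% of that sum in control and sham libraries against 11.7% to 18.9% in adenine and UUO libraries. The median log2 fold change over all tested entries was 0.30 for adenine and 0.62 for UUO, so that an unchanged relative rank corresponds to a value above 0. Median-of-ratios scaling brought these medians to 0.01 and 0.03, and members were therefore also read on that scale.

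In the adenine model, Abcc1, Abcc3 and Abcc4 rose, Abcg2 and Slc47a1 fell, and Abcc2 did not pass the test. These are 3 of 6 members higher and 2 of 6 lower, against 39.6% of 15029 tested entries higher and 19.9% lower. The UUO model gave the same calls for the same genes, again 3 of 6 higher and 2 of 6 lower, against 56.1% of 15043 tested entries higher and 14.4% lower. With median-of-ratios scaling the members' calls in the adenine model were again 3 higher and 2 lower, where 29.0% of all entries were called higher and 28.4% lower. On that scale the UUO model had 3 members higher and 3 lower, since Abcc2 was then also called lower, where 28.0% of all entries were called higher and 27.9% lower. The groups did not overlap in 5 of 6 members in either model, which 68.0% of all tested entries also showed with adenine and 75.7% with UUO. The median log2 fold change of the 6 members was 0.65 with adenine and 0.44 with UUO, and with median-of-ratios scaling it was 0.37 and -0.14.

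**Figure D1:**
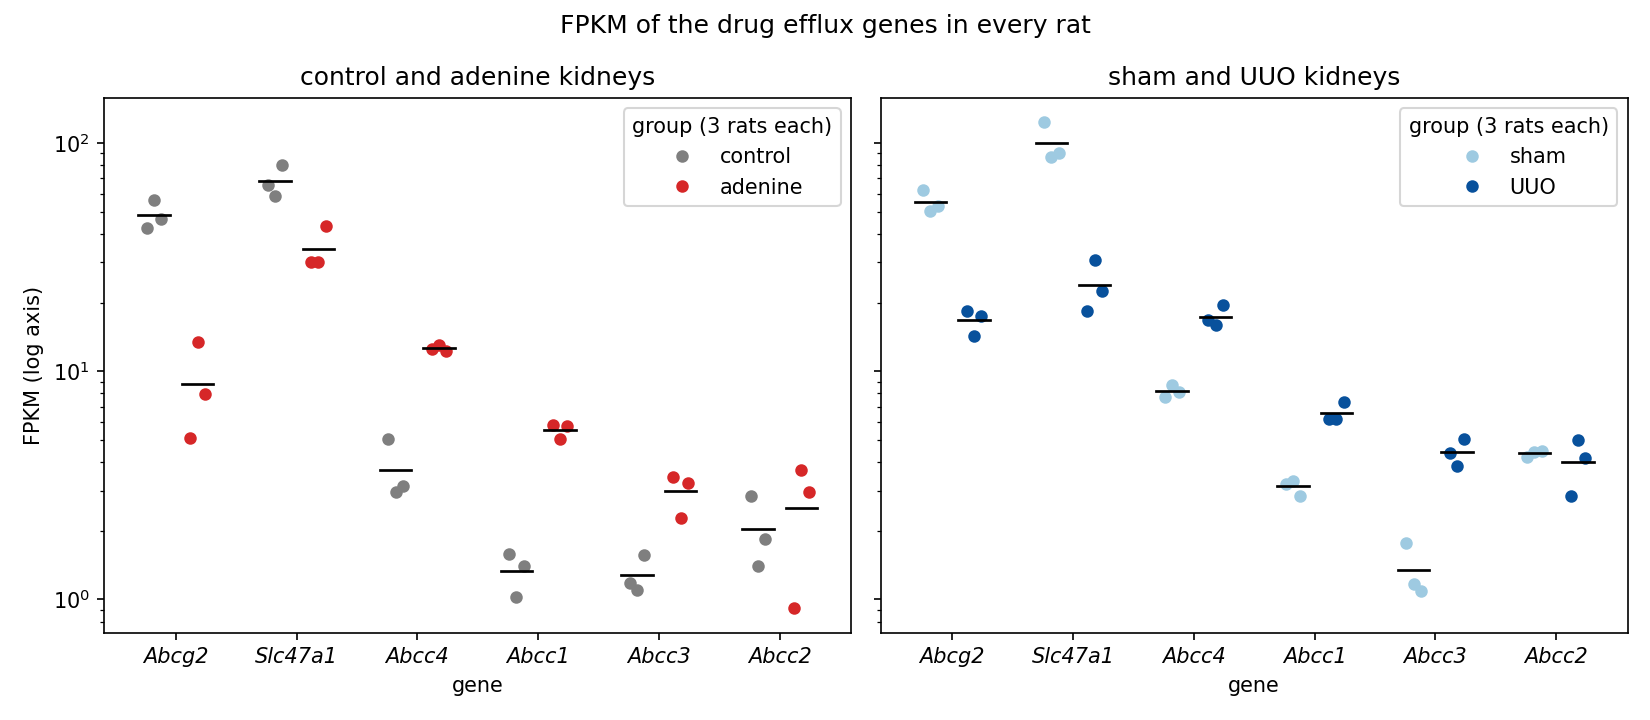
FPKM on a log axis for each of the 6 drug efflux genes in every rat, with control and adenine kidneys on the left and sham and UUO kidneys on the right. Points are single rats and bars are means of 3. Abcg2 and Slc47a1 lay lower in all treated rats than in their controls, Abcc4, Abcc1 and Abcc3 lay higher, and the groups overlapped for Abcc2.

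Abcg2 encodes the breast cancer resistance protein, an apical pump for urate, sulphate conjugates and many drugs. Its FPKM was 42.3, 56.5 and 46.5 in the control rats and 5.11, 13.4 and 7.94 in the adenine rats. The highest adenine rat was at less than any control rat, and the mean of 8.83 ± 4.24 (SD, n = 3) was 5.48-fold lower than the control mean of 48.4 ± 7.27 (SD, n = 3). The log2 fold change was -2.54 (SE 0.33, limma, Benjamini-Hochberg adjusted p = 0.000842), with a 95% interval of -3.34 to -1.74. Only 3.49% of all tested entries had a lower log2 fold change. Abcg2 was the only member that was a DEG in the adenine model, 1 of 6 members lower against 5.03% of all tested entries, while no member was a DEG in the higher direction against 10.7%. Abcg2 was a DEG there in all 15 refits under other settings, but the members above the threshold varied with them: Abcc1 and Abcc4 were also DEGs with equal FPKM sums (2.25 and 2.05) and without control rat 1 (2.12 and 2.01). Abcc1 was one as well with a pseudocount of 0.01 (2.07), without control rat 3 (2.04) and without adenine rat 2 (2.06).

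In the UUO table Abcg2 stood at 62.2, 50.5 and 52.9 FPKM in the sham rats and at 18.4, 14.3 and 17.4 FPKM in the UUO rats. The groups were again apart, and the 3 UUO rats lay closer to each other than the 3 adenine rats did. The mean fell 3.31-fold, from 55.2 ± 6.21 to 16.7 ± 2.18 FPKM (SD, n = 3 each), or -1.72 on the log2 scale (SE 0.13, limma, adjusted p = 6.38e-05). With median-of-ratios scaling the log2 fold changes were -2.83 with adenine and -2.32 with UUO.

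Slc47a1 encodes MATE1, the apical exchanger that passes organic cations such as creatinine and metformin into the tubular fluid. It was the most abundant member in every group mean. In the adenine table its FPKM was 65.3, 58.4 and 80.2 in the controls and 30.0, 30.0 and 43.3 in the adenine rats. All adenine rats lay below all controls, and the mean fell 1.98-fold, from 68.0 ± 11.2 to 34.4 ± 7.69 FPKM (SD, n = 3 each). The log2 fold change was -0.99 (SE 0.19, limma, adjusted p = 0.00418).

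After obstruction the fall of Slc47a1 was 4.22-fold in mean FPKM. The sham rats were at 123, 86.8 and 90.8 FPKM and the UUO rats at 18.3, 30.7 and 22.4 FPKM, with no overlap. The log2 fold change was -2.09 (SE 0.22, limma, adjusted p = 0.000205, 95% interval -2.61 to -1.57), and Slc47a1 was the only member that was a DEG in the UUO model, 1 of 6 lower against 4.21% of all tested entries, with 0 of 6 higher against 13.2%. Its value stood close to the threshold of 2, and it was no DEG with equal FPKM sums (-1.86), without sham rat 1 (-1.93) or without UUO rat 1 (-1.91), while Abcg2 was a DEG beside it with median-of-ratios scaling (-2.32) and quantile normalization (-2.07). In whole kidney, fewer cells that express a gene and less RNA of that gene per cell cannot be told apart, here and for the other members. The neighbouring gene Slc47a2, which encodes a second MATE protein, was low in every rat, from 0 to 0.975 FPKM in the adenine table and from 0.0252 to 0.431 FPKM in the UUO table, and was below the level required for testing.

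Abcc4 encodes multidrug resistance-associated protein 4, an apical pump for urate, cyclic nucleotides and organic anions. Unlike the other apical members called, it rose in both models. Its FPKM was 5.02, 2.95 and 3.14 in the control rats and 12.5, 13.1 and 12.2 in the adenine rats. The adenine rats were tightly grouped at a mean of 12.6 ± 0.416 (SD, n = 3), 3.40-fold above the controls, or 1.78 on the log2 scale (SE 0.21, limma, adjusted p = 0.00058). The sham rats were at 7.74, 8.72 and 8.14 FPKM and the UUO rats at 16.7, 15.9 and 19.5 FPKM, a 2.12-fold rise of the mean or 1.07 on the log2 scale (SE 0.12, limma, adjusted p = 0.000241). With median-of-ratios scaling the rise was 1.49 and 0.47 on the log2 scale, still past the threshold in each model by limma (adjusted p = 0.000979 and 0.00984).

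Abcc2 encodes multidrug resistance-associated protein 2, the apical pump for glutathione and glucuronide conjugates. Its FPKM was 2.83, 1.41 and 1.85 in the controls and 0.915, 3.70 and 2.95 in the adenine rats. The adenine rats lay on either side of the control range, and the log2 fold change of 0.15 had a 95% interval of -1.11 to 1.41 (limma, adjusted p = 0.822), which includes a fall as well as a rise of more than 2-fold. In the UUO table it was at 4.22, 4.44 and 4.47 FPKM in the sham rats and at 2.85, 5.01 and 4.19 FPKM in the UUO rats. The sham rats were nearly equal and the UUO rats spread around them, with a log2 fold change of -0.16 and a 95% interval of -0.68 to 0.36 (limma, adjusted p = 0.54). This result depended on the scale: with median-of-ratios scaling the log2 fold change in the UUO model was -0.74 (limma, adjusted p = 0.0237) and with quantile normalization it was -0.92 (adjusted p = 0.0132).

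Abcc1 encodes multidrug resistance-associated protein 1, a basolateral pump for leukotriene C4 and glutathione conjugates. In the adenine table its FPKM was 1.58, 1.02 and 1.40 in the controls and 5.80, 5.03 and 5.77 in the adenine rats. The lowest adenine rat was above every control, the mean rose 4.15-fold, and its value of 1.99 on the log2 scale (SE 0.20, limma, adjusted p = 0.000303) lay just under the DEG threshold. In the UUO table the sham rats were at 3.22, 3.32 and 2.84 FPKM and the UUO rats at 6.15, 6.20 and 7.35 FPKM, without overlap. The mean rose 2.10-fold, or 1.05 on the log2 scale (SE 0.14, limma, adjusted p = 0.000696). With median-of-ratios scaling this was 0.46 (adjusted p = 0.0298), and with quantile normalization 0.29, which did not pass (limma, adjusted p = 0.13).

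Abcc3 encodes multidrug resistance-associated protein 3, a basolateral pump for glucuronides and bile salts. It was at 1.18, 1.10 and 1.57 FPKM in the controls and at 3.45, 2.28 and 3.24 FPKM in the adenine rats. The groups did not overlap, and the mean rose 2.33-fold or 1.15 on the log2 scale (SE 0.24, limma, adjusted p = 0.00597). With quantile normalization the adenine value was 0.62 and did not pass (limma, adjusted p = 0.0641). In the UUO table the sham rats were at 1.78, 1.16 and 1.09 FPKM and the UUO rats at 4.36, 3.86 and 5.06 FPKM. The mean rose 3.30-fold, the largest rise of a member in the UUO model, or 1.67 on the log2 scale (SE 0.23, limma, adjusted p = 0.000743).

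**Figure D2:**
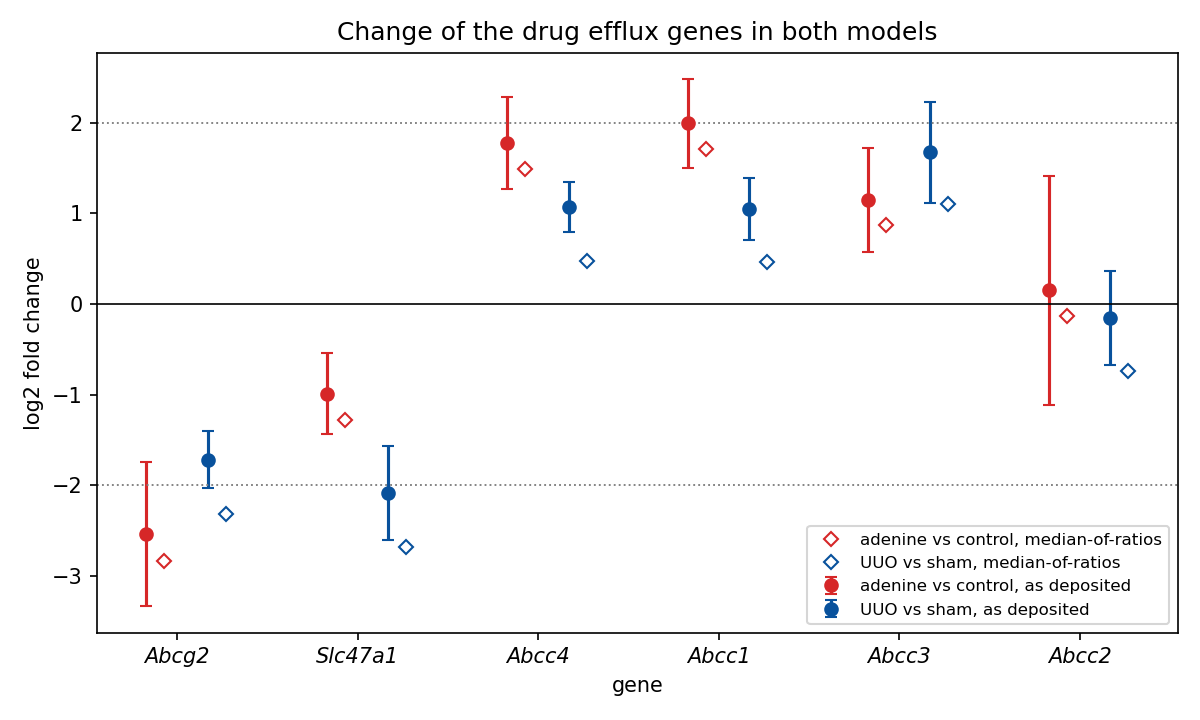
Log2 fold change of each drug efflux gene in the adenine model (red) and the UUO model (blue). Filled circles with 95% intervals are limma estimates on the values as deposited, open diamonds are the same estimates after median-of-ratios scaling, and dotted lines mark the DEG threshold of 2 in size. Scaling moved every gene down, by more in the UUO model than in the adenine model, and Abcc2 is the member whose diamond in the UUO model passed the test where the circle did not.

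The models were compared by the difference of their log2 fold changes, adenine minus UUO, tested over the 13486 symbols that were tested in both tables, of which 3640 or 27.0% differed at an adjusted p under 0.05, against 3 of the 6 members. Abcc1 rose more in the adenine model, by 0.95 (SE 0.25, limma estimates, adjusted p = 0.0145), and stayed past the threshold in all 22 alternatives tried. Slc47a1 fell less in the adenine model, by a difference of 1.10 (SE 0.29, limma estimates, adjusted p = 0.0142), also in all 22 alternatives. For Abcc4 the difference was 0.71 (SE 0.24, limma estimates, adjusted p = 0.0443), but 14 of 22 alternatives did not pass, including 9 of 12 fits that left out 1 rat. For Abcg2 the difference was -0.82 (SE 0.36, limma estimates, adjusted p = 0.104), and without adenine rat 2, which had the highest Abcg2 of its group, it was -1.17 (adjusted p = 0.00865). Abcc3 (-0.52, SE 0.34, adjusted p = 0.265) and Abcc2 (0.31, SE 0.57, adjusted p = 0.721) did not pass by the same limma estimates. The animals of each model came with their own controls, so a difference between models includes whatever differed between the 2 experiments.

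The make-up of the set changed within each rat. FPKM is scaled by transcript length, so that levels of different genes can be set side by side. The order of the group means in controls was Slc47a1, Abcg2, Abcc4, Abcc2, Abcc1 and Abcc3, with the sham group in the same order. In the control group the ranges of Abcc2, Abcc1 and Abcc3 overlapped from each gene to the next, whereas no neighbours overlapped in the sham group. In the adenine group the order was Slc47a1, Abcc4, Abcg2, Abcc1, Abcc3 and Abcc2, where Abcg2 overlapped both Abcc4 and Abcc1, and Abcc3 overlapped Abcc2. The UUO group had that same order, and there the ranges of Slc47a1, Abcc4 and Abcg2 overlapped from each gene to the next, as did those of Abcc3 and Abcc2.

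Abcg2 and Slc47a1 together made up 91.0% to 94.7% of the summed FPKM of the 6 members in controls and 60.7% to 67.9% in adenine rats. In the UUO table they made up 88.6% to 91.6% in sham rats and 52.5% to 59.2% in UUO rats. The 4 Abcc genes accounted for the rest, with a mean share of 6.74% ± 1.96 in controls, 35.7% ± 3.61 in adenine rats, 10.02% ± 1.53 in sham rats and 44.4% ± 3.43 in UUO rats (SD, n = 3 each). These shares do not depend on scaling between libraries by a factor. The groups did not overlap, and the exact two-sided permutation test gave p = 0.1 in each model, which is the smallest p that 3 rats against 3 allow. The falls of Abcg2 and Slc47a1 and the rises among the Abcc genes, shown above, fix the direction of this shift. These shares are therefore a description, and the test adds no separate support.

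The share of Abcg2 fell from 38.9% ± 6.61 to 13.1% ± 5.97 in the adenine model, whereas that of Slc47a1 was 54.3% ± 5.79 in controls and 51.2% ± 6.52 in adenine rats, with overlap (exact permutation p = 0.6). In the UUO model Slc47a1 carried more of the loss, from 57.9% ± 2.63 to 32.5% ± 7.02, and Abcg2 was at 32.1% ± 1.20 in sham and 23.1% ± 4.43 in UUO rats (exact permutation p = 0.1 for each). The share of Abcc4 was 3.00% ± 1.08 in controls and 19.1% ± 2.75 in adenine rats, and 4.84% ± 0.925 in sham and 23.9% ± 2.57 in UUO rats (exact permutation p = 0.1 in each model). The direction of this change was likewise fixed by the changes shown above. The summed FPKM of the 6 members was 118 to 135 in controls against 57.8 to 75.4 in adenine rats, and 155 to 202 in sham against 66.8 to 75.9 in UUO rats.

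**Figure D3:**
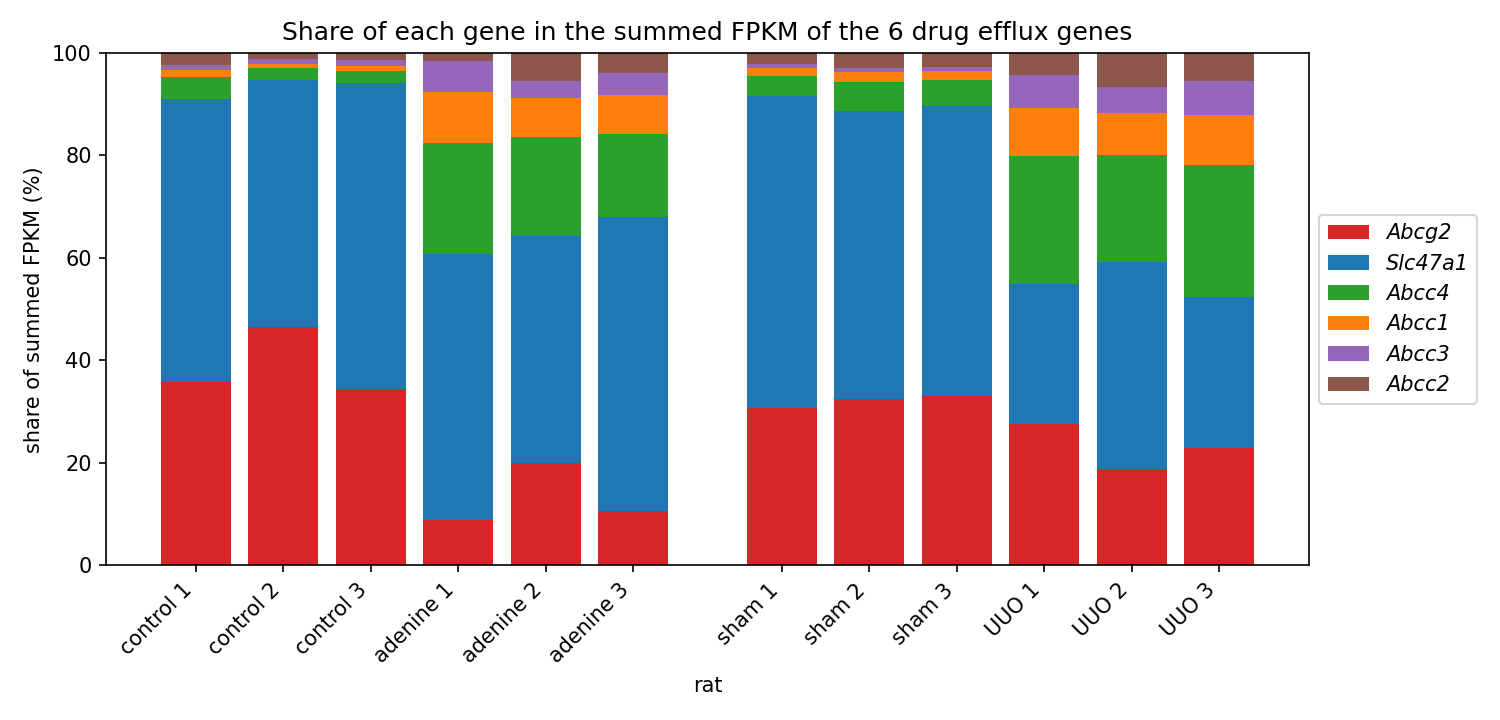
Share of each drug efflux gene, in percent, in the summed FPKM of the 6 genes, 1 bar per rat. Abcg2 and Slc47a1 fill 88.6% to 94.7% of every control and sham bar and 52.5% to 67.9% of every adenine and UUO bar, and Abcc4 takes up the largest part of the remainder in the treated rats.

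Abcg2 and Abcc4 share substrates such as urate and stand at the same membrane. Their ratio within a rat is given as a description, since the fall of Abcg2 and the rise of Abcc4, shown above, fix its direction. Abcg2 exceeded Abcc4 by 8.43, 19.1 and 14.8 times in the controls, and the ratio was 0.407, 1.03 and 0.649 in the adenine rats. In sham rats the ratio was 8.05, 5.79 and 6.50, and in UUO rats 1.11, 0.897 and 0.894. The log2 ratio fell by 4.37 with adenine and by 2.81 after obstruction.

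Slc47a1 works in series with the uptake carrier Slc22a2 in the secretion of organic cations. The 2 genes did not keep their proportion. Slc22a2 stood at 352 to 543 FPKM in controls and 1.18 to 6.38 FPKM in adenine rats, and at 439 to 603 FPKM in sham and 11.7 to 13.5 FPKM in UUO rats. The ratio of Slc47a1 to Slc22a2 was 0.186, 0.107 and 0.184 in controls against 25.4, 4.70 and 9.70 in adenine rats, and 0.204, 0.176 and 0.207 in sham rats against 1.56, 2.27 and 1.81 in UUO rats (exact permutation p = 0.1 in each model). MATE1 transcripts were thus fewer than those of its uptake partner in all control and sham rats and more numerous in all treated rats. Slc22a2 fell by 7.02 with adenine and 5.33 with UUO on the log2 scale, more than Slc47a1, which fixes the direction of this ratio's change. The ratio is therefore a description, and its test adds no separate support.

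Among 7 basolateral uptake carriers, 6 were tested in each table, and 4 fell with adenine (5 with median-of-ratios scaling) and 6 after obstruction, with no carrier higher, against 19.9% and 14.4% of all entries lower. Their median log2 fold change was -4.42 and -4.44, against 0.30 and 0.62 over all entries. The organic anion carrier Slc22a6 was at 124 to 315 FPKM in controls and at 4.16 to 31.3 FPKM in adenine rats, with a log2 fold change of -3.88 (limma, adjusted p = 0.00395). In the UUO model it fell by 4.54 on the log2 scale (limma, adjusted p = 0.000823). The 4 apical efflux members had medians of -0.42 and -0.94, and the 2 basolateral efflux members, Abcc1 and Abcc3, had medians of 1.57 and 1.36.

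Of 8 genes for transcriptional regulators of efflux genes, 1 rose and 2 fell in the adenine model, and 2 rose and 3 fell in the UUO model, where 39.6% and 56.1% of all entries rose and 19.9% and 14.4% fell. Nfe2l2, which encodes the regulator of the antioxidant response, rose by 1.01 and 0.61 on the log2 scale (limma, adjusted p = 0.000953 and 0.0021). Its UUO value lay near the median of 0.62 over all entries, and was 0.01 with median-of-ratios scaling (limma, adjusted p = 0.946). Ahr rose by 1.25 in the UUO model (limma, adjusted p = 0.0051) and had 0.43 in the adenine model (adjusted p = 0.137). With median-of-ratios scaling no regulator was called higher in the UUO model, and 4 of 8 were called lower in each model. Hnf4a, a nuclear receptor of proximal tubule identity, had log2 fold changes of -2.42 and -1.93 (limma, adjusted p = 0.005 and 0.000301). Nr1h4 also fell in both models (-1.13 and -1.61, limma, adjusted p = 0.00815 and 0.000117), and Ppara fell in the UUO model alone (-0.90, limma, adjusted p = 0.0052). The pregnane X receptor gene Nr1i2 (-0.81 and -0.36) did not pass in either model with the values as deposited (limma, adjusted p = 0.0639 and 0.0955). It was called lower in both models with median-of-ratios scaling (-1.10 and -0.95, limma, adjusted p = 0.0194 and 0.00264). Quantile normalization also gave a lower call in both (-1.26 and -1.10, limma, adjusted p = 0.00972 and 0.00162).

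The apical pumps are held at the membrane by scaffold proteins, and of 6 scaffold genes 1 rose and 2 fell in the adenine model, and 2 rose and 2 fell in the UUO model, beside the same shares of all entries (39.6% and 56.1% higher, 19.9% and 14.4% lower). Pdzk1, whose product binds the tails of apical carriers, had log2 fold changes of -2.60 and -2.47 (limma, adjusted p = 0.00439 and 0.000167). Slc9a3r1 had -1.77 and -1.57 (limma, adjusted p = 0.00103 and 0.000119). Msn, the gene of moesin, rose by 1.60 and 1.18 (limma, adjusted p = 7.48e-05 and 6.65e-05), and Ezr, the gene of ezrin, rose by 0.56 in the UUO model (limma, adjusted p = 0.00397) and had 0.09 in the adenine model (adjusted p = 0.623). The UUO value of Ezr lay below the median of 0.62 over all entries. With median-of-ratios scaling it was -0.04 (limma, adjusted p = 0.761), and 1 scaffold gene rose and 2 fell in each model.

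Cell type markers changed as well. Their counts stand beside 39.6% of all tested entries higher and 19.9% lower with adenine, and 56.1% and 14.4% with UUO. With median-of-ratios scaling these shares were 29.0% and 28.4% with adenine, and 28.0% and 27.9% with UUO. Proximal tubule markers were present in every library, with a summed FPKM of 2026 to 2713 in controls and 154 to 450 in adenine rats, and of 2439 to 2775 in sham and 316 to 565 in UUO rats. Of 8 such markers 4 fell (Lrp2, Slc34a1, Aqp1 and Miox) and 1 rose (Slc5a12) in the adenine model. The same 4 fell in the UUO model. Slc5a12 stood at 0.0254 to 1.81 FPKM in controls and at 3.22 to 12.5 FPKM in adenine rats (limma, adjusted p = 0.013). In the UUO table it varied widely among sham rats, at 10.2, 0.743 and 9.96 FPKM. UUO rats were at 2.35 to 5.85 FPKM, and Slc5a12 did not pass there (-0.04, limma, adjusted p = 0.973). With the values as deposited, Cubn, Slc13a1 and Slc5a2 passed the test in neither model. The highest control means were those of Miox (770 FPKM), Slc34a1 (724 FPKM) and Aqp1 (606 FPKM), so the sum mostly follows these genes. All 5 macrophage markers rose in both models, from a sum of 13.3 to 16.9 FPKM to 423 to 684 FPKM with adenine and from 14.8 to 22.1 FPKM to 178 to 210 FPKM with UUO. Fibroblast markers rose in 5 of 5 tested with adenine and 6 of 6 with UUO, with sums of 69.7 to 88.6 and 333 to 424 FPKM, and of 69.7 to 89.2 and 814 to 1490 FPKM. With median-of-ratios scaling 4 of 5 fibroblast markers rose with adenine, as Acta2 did not pass (0.66, limma, adjusted p = 0.0672), and 5 of 8 proximal tubule markers fell with UUO. T and B cell markers rose in 3 of 4 and 4 of 4 tested (6.10 to 10.2 against 93.9 to 112 FPKM, and 10.2 to 15.1 against 90.7 to 175 FPKM), as did the leukocyte marker Ptprc in both models.

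Distal nephron markers fell in 4 of 6 and 6 of 6 (1558 to 2340 against 196 to 430 FPKM, and 2565 to 3229 against 119 to 262 FPKM), and podocyte markers in 1 of 3 in each model (29.7 to 189 against 21.8 to 56.3 FPKM, and 121 to 189 against 46.2 to 83.5 FPKM), or 2 of 3 with UUO under median-of-ratios scaling. Of 5 tested endothelial markers, 1 rose and 3 fell in the adenine model (85.8 to 102 against 37.7 to 50.9 FPKM) and 3 rose in the UUO model (81.5 to 106 against 146 to 178 FPKM), while with median-of-ratios scaling 0 rose and 3 fell with adenine, and 2 rose and 1 fell with UUO. Of all tested entries 39.6% were higher and 19.9% lower with adenine, and 56.1% and 14.4% with UUO. The 3 of 5 endothelial markers higher with UUO were thus near the share of all entries. No listed marker was at the lowest value in all rats of a group. The part of these shifts in the changes of the members was not tested.

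Beyond the members, 44 other ABC genes were found by symbol, 32 of them tested in the adenine table and 30 in the UUO table. In the adenine model 14 rose and 9 fell, and in the UUO model 14 rose and 10 fell. Over all entries 39.6% rose and 19.9% fell with adenine, and 56.1% rose and 14.4% fell with UUO. The ABC genes had medians of 0.30 and 0.28 beside 0.30 and 0.62 over all entries. With median-of-ratios scaling these counts were 12 and 12 for adenine and 11 and 15 for UUO. Among the ABC genes with the largest rises were cholesterol exporters. Abca1, which loads cholesterol onto apolipoproteins, rose from 1.06 to 1.31 FPKM in controls to 9.62 to 14.3 FPKM in adenine rats and from 1.05 to 1.29 FPKM in sham to 10.2 to 11.5 FPKM in UUO rats, by 3.24 and 3.11 on the log2 scale. Abcg1 rose by 3.00 and 2.72, from 2.02 to 3.36 and 1.60 to 2.01 FPKM to 19.0 to 26.4 and 9.63 to 13.4 FPKM. Abcg5, a sterol exporter subunit, was listed at 0 in all 3 controls and at 0.586 to 0.880 FPKM in adenine rats. The largest rises in the UUO model were those of Abca8a (1.64 to 3.01 FPKM in sham, 24.7 to 41.6 FPKM in UUO rats) and Abca9 (0.0001 to 0.0692 FPKM in sham, 0.863 to 1.45 FPKM in UUO rats), 0.0001 being the lowest value that table holds.

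On the log2(FPKM + 0.1) scale the largest fall of an ABC gene in either model was that of Abcc8, the sulphonylurea receptor subunit of a potassium channel, from 1.14 to 2.82 FPKM in controls to 0.0534 to 0.0848 FPKM in adenine rats and from 1.31 to 2.36 FPKM in sham to 0.0197 to 0.108 FPKM in UUO rats. Abcc6, a transporter needed for ATP release in liver and kidney, followed in the adenine model, at 10.1 to 11.3 FPKM in controls and 0.728 to 1.63 FPKM in adenine rats. Abcb11, the bile salt export pump, fell in the UUO model from 0.621 to 1.13 FPKM to 0.0001 to 0.0371 FPKM, a larger fall than that of Abcc8 when read as a ratio of mean FPKM, and Abca4 fell in both models (-2.01 and -2.22 on the log2 scale). Abcg2, with -2.54 in the adenine model, thus stood between Abcc6 (-3.01) and Abca4.

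**Figure D4:**
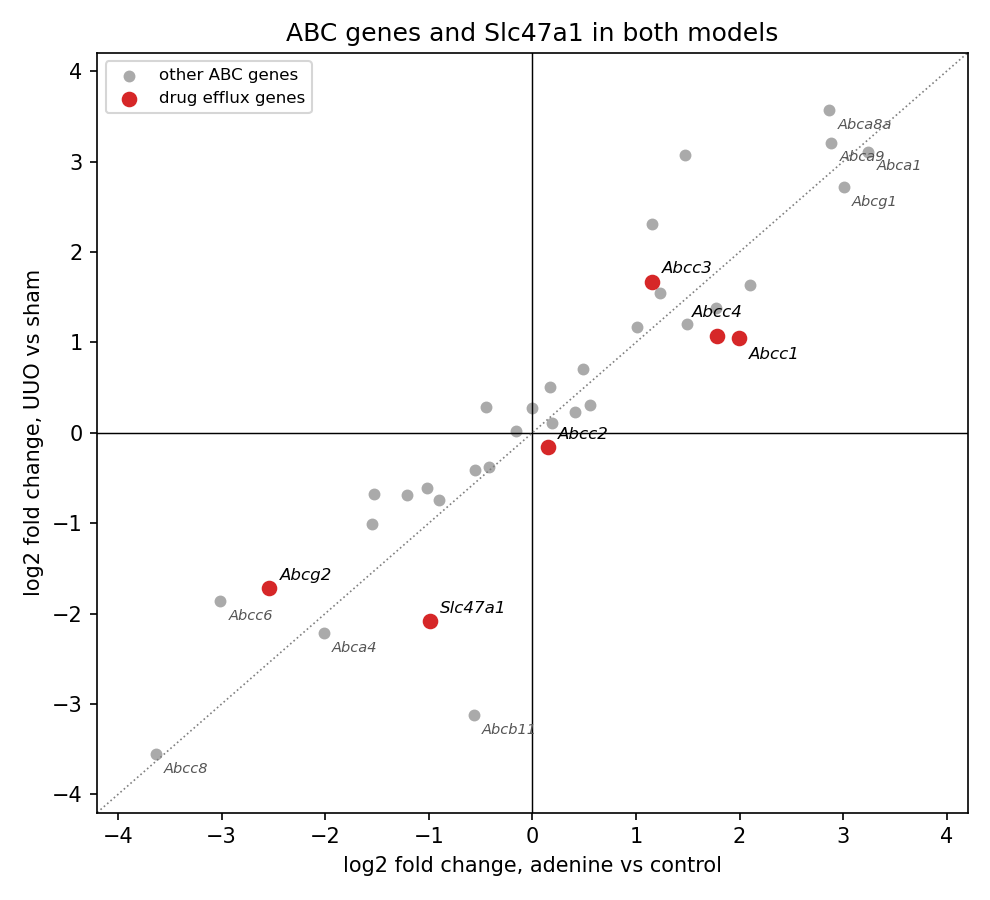
Log2 fold change in the adenine model (horizontal) against that in the UUO model (vertical) for the 6 drug efflux genes (red) and the 30 other ABC genes tested in both tables (grey), with the dotted line marking equal values. Abcc1 and Abcc4 lie below the line on the rising side, Slc47a1 below it on the falling side, and the ABC genes with the largest changes are labelled.

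For each member, the 3 genes with the most similar course over the 12 rats were sought among 13486 symbols, as the smallest root mean square difference of log2(FPKM + 0.1) after subtracting the mean of the control or sham rats. For Abcc4 these were Itsn1 (0.0909), Scpep1 (0.124) and Rel (0.131), and for Abcc1 they were Pcyox1 (0.112), Rasa3 (0.12) and Hectd4 (0.138). For Abcc3 they were Capn12 (0.141), Plekhg6 (0.146) and Klf11 (0.155). Abcg2 had less close neighbours in Chst2 (0.177), Mpp6 (0.202) and Sun3 (0.23), as had Abcc2 in Eps8 (0.243), Fads2 (0.255) and Cmtm4 (0.266). The values were highest for Slc47a1, with Glul (0.278), Gk (0.281) and LOC497899 (0.285). This likeness is a description of these 12 rats.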

How the data were processed

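Total RNA of 12 rat kidneys was poly(A)-selected, made into dUTP-marked libraries and sequenced in pairs by the authors. According to the submitters' processing notes, cutadapt 1.9, HISAT2 2.0.4, StringTie 1.3.4d, edgeR and DESeq2 were used. The genome build and annotation are not given in the sources used here. The deposited values are FPKM per gene, calculated by the authors in a separate table for each model, so tests were made within a table. Levels between the tables are set side by side only. FPKM ratios of low genes between libraries showed no common step (at most 6.57% of genes shared a ratio), so the number of reads is unknown.

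An entry was tested where 3 or more of the 6 samples of its table reached an FPKM of 0.5, by limma 3.58.1 (lmFit, eBayes with trend, R 4.3.3) on log2(FPKM + 0.1), with Benjamini-Hochberg adjustment over all tested entries. Fold changes on this scale understate the change of low genes. FPKM is no count, so the count-based method named by the study was not applied. Groups followed the labels, which call the rats biological replicates. The difference between the models was divided by the root of the summed squared standard errors. Shares and ratios within a rat were compared by exact permutation tests in scipy 1.17.1, without adjustment. The scripts were tested on simulated data. The planned ratio of Abcb1b to Abcb1a could not be formed, and columns without a sample numbered 0.

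The members, gene lists and motifs were chosen with earlier results of these data known. An item of the regulator list and its motif are not reported here. Named were all members, genes of the lists, for each model 3 further ABC DEGs that rose most and 3 that fell most, and the 3 genes most like each member. Alternatives were median-of-ratios scaling, equal FPKM sums, quantile normalization, a pseudocount of 1 or 0.01, testing every entry, requiring an FPKM of 1, eBayes without trend, a replicate block and leaving out each rat. A single fit over both tables was added after seeing the data.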

Additional observations from a re-analysis of the deposited data

Results flagged for a closer look

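The change of 3 members differed between the models by the test of the difference itself, where 27.0% of 13486 symbols did. The log2 fold change in the adenine model minus that in the UUO model was 0.95 for Abcc1, 1.10 for Slc47a1 and 0.71 for Abcc4, by limma estimates with Benjamini-Hochberg adjusted p of 0.0145, 0.0142 and 0.0443. Abcc1 (1.99 and 1.05) rose more with adenine, and Slc47a1 (-0.99 and -2.09) fell more after obstruction. With a single fit over both tables, added after seeing the data, the adjusted p was 0.0164 for Abcc1, 0.0281 for Slc47a1 and 0.0584 for Abcc4, which missed the threshold in 14 of 22 alternatives. In both experiments the groups held 3 rats, too few for a test of single outlying rats.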

How the results depend on the processing

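Of 192 refits of member fold changes under the alternatives, 188 kept their direction where called and their side of the threshold. The exceptions were scale-dependent: with quantile normalization Abcc3 in the adenine model (0.62, adjusted p = 0.0641) and Abcc1 in the UUO model (0.29, adjusted p = 0.13) were lost by limma, and Abcc2 in the UUO model was called with median-of-ratios scaling (-0.74) and quantile normalization (-0.92). With quantile normalization the shares in the UUO model rose by 6.13 points for Abcc1, 1.82 for Abcc2 and 4.56 for Abcc3. A pseudocount of 1 gave 1320 DEGs against 2360 with adenine and 1465 against 2613 with UUO. The share of changed entries that were higher was 66.5% and 79.6%, against 50.6% and 50.1% with median-of-ratios scaling.

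For Abcc4 the difference between the models was 0.57 with a pseudocount of 1, and 0.71 without a filter, without the trend, with the replicate block and with a single fit over both tables, none of which passed (limma, adjusted p = 0.0541 to 0.0613). Without single rats it was between 0.57 and 0.95 (adjusted p = 0.00295 to 0.111), and for Abcg2 between -1.17 and -0.48 (adjusted p = 0.00865 to 0.242).

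With the replicate number as a block, the difference for Abcg2 (-0.82) passed (limma, adjusted p = 0.0299), and 7915 and 10578 entries changed, against 8934 and 10606. Rats with the same number had deviations correlated at -0.12 to -0.05 in the adenine table and 0.05 to 0.11 in the UUO table, where each sham rat correlated best with its own number. Neither table had all 3 same-number correlations over 0.1, so the rats were not treated as paired. The block changed no member's call within a model. The causes were not tested. With 3 rats a group and unknown depth, p-values cover the spread between these rats only, and FPKM are relative to each library's total.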

Other observations

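Within the 3 adenine rats, Abcg2 and Abcc2 were lowest in rat 1 and highest in rat 2, and 7 of 8 proximal tubule markers (Lrp2, Cubn, Slc34a1, Slc5a2, Slc13a1, Aqp1 and Miox) stood in that same order. Abcc1, Abcc3, Abcc4 and Slc47a1 shared their order with none of the 8 markers there. Within the 3 UUO rats, Abcc2 and Slc47a1 were lowest in rat 1 and highest in rat 2, as were 5 of 8 markers (Lrp2, Cubn, Slc34a1, Slc5a12 and Miox), while Abcc1 shared its order with Slc13a1 alone, and Abcg2, Abcc3 and Abcc4 with none. The orders rest on 3 rats and were not tested.

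The ratio of Abcc4 to Abcc2, both apical Abcc genes, was 1.77, 2.10 and 1.70 in controls and 1.84, 1.96 and 1.82 in sham rats, a narrow range across 6 animals of separate tables. It was 13.7, 3.53 and 4.15 in adenine rats and 5.85, 3.17 and 4.65 in UUO rats, above the controls in all 6.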
